A study of Mus musculus with 8 samples.

Results

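The genes described are 10 interferon-inducible GTPases of the mouse, which fall into 3 families. They are the guanylate-binding proteins Gbp2, Gbp3 and Gbp7, the immunity-related GTPases Irgm1, Irgm2, Igtp (also called Irgm3), Iigp1 (Irga6) and Ifi47 (Irgd), and the MX dynamin-like GTPases Mx1 and Mx2. They were named as members of these families, with earlier results of these data known, and are not all the members that the families hold. They were found by matching gene identifiers to symbols. All 10 were among the 52636 gene identifiers counted, and all 10 were among the 17378 genes with enough reads to be tested. RNAseq was carried out on polyadenylated RNA of S0 cells from E12.5 fetal livers, in 4 wild-type (WT) libraries and 4 libraries from embryos lacking both Vps13a and Vps13c (DKO). S0 cells, labelled as erythroid precursors, are the cells that remain when fetal liver cells carrying lineage markers, CD71 or Ter119 are removed by cell sorting. Mice of both genotypes were on the C57BL/6J background, the Vps13a allele had an exon removed by a ubiquitously expressed (beta-actin) Cre, and DKO embryos were obtained by intercrossing Vps13a+/-, Vps13c-/- mice. No WT embryo can come from that cross, so litter and genotype cannot be told apart. The labels do not say that each library is a separate embryo, and p-values therefore measure only the spread between these libraries, which may in part be technical.

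Each WT library held 42114489 to 50886469 counts and each DKO library 36981439 to 42587815 counts. Vps13a fell in DKO with a log2 fold change of -1.29 (edgeR quasi-likelihood adjusted p = 0.00247), and its groups did not overlap. Vps13c, whose transcript was still counted in DKO, had a log2 fold change of 0.49 (adjusted p = 0.182). The libraries also differed in ways that the labels do not name. Ddx3y, on the Y chromosome, had 2911 to 3354 normalized counts in WT and 2516 in DKO replicate 3, but at most 41.0 in the other 3 DKO libraries, so that only DKO replicate 3 had the pattern of the WT libraries for sex-linked genes. Of 62 replication-dependent histone genes tested, 61 had a log2 fold change above 0, with a median of 1.61. Of markers of other cells, the summed normalized counts of 10 myeloid genes were 101859 to 133043 in WT and 5332 to 44952 in DKO. Those of 12 macrophage genes were 4904 to 7401 in WT and 1389 to 4388 in DKO. Cd163 was at 0 in all libraries and Timd4 at 0 in DKO. Of the 10 macrophage genes tested, 8 had a log2 fold change below 0 and 2, C1qa and C1qc, above 0. In DKO replicate 1, C1qa (83.0), C1qb (128), C1qc (79.9) and Mrc1 (87.2) were above every WT library. The highest WT values were 30.6, 83.1, 23.2 and 67.1 in that order. No other macrophage gene was above every WT library in DKO replicate 1. For 12 lymphoid and NK genes the summed normalized counts were 1650 to 1915 in WT and 319 to 1021 in DKO. Of these, Ncr1 and Tbx21 were at 0 in all 8 libraries. Cd3e, Gzma, Klrb1c and Rag1 were counted in WT but were at 0 in every DKO library. The others were counted in both groups, and Nkg7 (mean 1410.05 in WT and 639 in DKO) made up most of the sum in each. The sum was 4675 to 5784 in WT and 2638 to 3114 in DKO for 8 endothelial genes. For 8 hepatoblast genes it was 461040 to 638878 in WT and 153418 to 555371 in DKO. The 10 erythroid markers, from Gata1 and Klf1 to the globins, summed to 50143 to 90134 in WT and 37210 to 109953 in DKO. Fewer cells of a type and less RNA per cell cannot be told apart in such bulk libraries, and the part of these cells, of sex and of the histone reads in the results for the GTPases was not tested.

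Interferons induce a set of large GTPases that act inside the cell against pathogens. Guanylate-binding proteins assemble on the membranes of vacuoles that hold bacteria or parasites and on the pathogens themselves, and promote their disruption. Immunity-related GTPases include effectors such as Iigp1 and Ifi47, which load onto such vacuoles, and regulators of the Irgm group (Irgm1, Irgm2 and Igtp), which sit on the cell's own membranes and keep the effectors inactive there. MX proteins block the replication of viruses, and Mx1 and Mx2 of C57BL/6 mice carry mutations that prevent a functional protein. Interferon gamma acts mainly through a promoter motif called GAS, whereas the type I interferons (alpha and beta) act mainly through ISGF3, a complex that holds STAT2 and IRF9 and binds a motif called ISRE. GBP and IRG genes are known as strong targets of interferon gamma, and MX genes as targets of type I and type III interferons.

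The promoters of the family are shown first, because the known interferon pathways act through motifs of this kind. RefSeq promoter windows on GRCm38.p6, each of 300 bases with 250 before the start, were at hand for 7 of the 10 genes (Gbp2, Gbp3, Gbp7, Irgm1, Irgm2, Igtp and Ifi47). Gbp3 had a further window from a later start, which held neither of the patterns below and is not printed. The windows were searched on both strands for 2 patterns, GAAA followed after any 2 bases by a further GAAA for the ISRE and TTCNNNGAA for GAS, which reads alike on both strands. The 150 bases before the start are printed 5′ to 3′ on the strand of the gene, with matches to either pattern in capitals. Gbp3 and Gbp7 are shown as GBP genes that rose in DKO, Irgm1 as the IRG gene that rose, Igtp and Irgm2 as neighbouring IRG genes with similar windows, and Ifi47 as the one of the 10 genes with a negative log2 fold change.
Gbp3 (chr3:142559894-142560043, plus strand): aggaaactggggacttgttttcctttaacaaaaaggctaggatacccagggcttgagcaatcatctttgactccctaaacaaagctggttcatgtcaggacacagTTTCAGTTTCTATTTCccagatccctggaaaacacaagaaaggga
Gbp7 (chr3:142530186-142530335, plus strand): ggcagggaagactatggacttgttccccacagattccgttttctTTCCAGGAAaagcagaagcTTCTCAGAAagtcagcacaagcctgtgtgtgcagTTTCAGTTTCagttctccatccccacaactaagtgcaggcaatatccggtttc
Irgm1 (chr11:48871421-48871570, minus strand): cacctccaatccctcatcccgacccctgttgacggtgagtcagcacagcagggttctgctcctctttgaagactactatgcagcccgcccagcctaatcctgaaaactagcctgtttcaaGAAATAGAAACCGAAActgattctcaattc
Igtp (chr11:58199406-58199555, plus strand): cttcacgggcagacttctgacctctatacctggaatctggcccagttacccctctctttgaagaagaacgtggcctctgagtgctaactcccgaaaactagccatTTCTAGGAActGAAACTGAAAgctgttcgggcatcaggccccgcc
Irgm2 (chr11:58214827-58214976, plus strand): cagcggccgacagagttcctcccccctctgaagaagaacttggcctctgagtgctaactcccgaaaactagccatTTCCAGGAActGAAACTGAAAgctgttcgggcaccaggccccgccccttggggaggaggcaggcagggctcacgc
Ifi47 (chr11:49076437-49076586, plus strand): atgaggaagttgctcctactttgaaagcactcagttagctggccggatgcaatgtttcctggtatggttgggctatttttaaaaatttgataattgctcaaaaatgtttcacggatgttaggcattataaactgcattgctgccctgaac

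An ISRE pattern was present in 6 of these 7 genes (85.7%), against 3.99% of the 27025 genes with a window. A GAS pattern was present in 3 of the 7 (42.9%), against 9.55% of all genes, and the 3 genes that held it, Gbp7, Igtp and Irgm2, also held an ISRE pattern. Counted from the base before the start as -1, Gbp3 held a pair of overlapping ISRE matches on the opposite strand (TTTCAGTTTC from -45 and TTTCTATTTC from -39), and Irgm1 held an overlapping pair on its own strand (GAAATAGAAA from -30 and GAAACCGAAA from -24). Gbp7 held 1 ISRE match from -53 and 2 GAS matches from -106 and -87, and Gbp2, whose window is not printed, held 1 ISRE match from -59 (TTTCACTTTC). In Igtp a GAS match from -45 (TTCTAGGAA) was followed by an ISRE match from -34 (GAAACTGAAA), and in Irgm2 the same order was found with TTCCAGGAA from -75 and GAAACTGAAA from -64. The windows of Igtp and Irgm2 shared 184 of 270 aligned bases (68.1%) at a shift of 30 bases, with an identical run of 61 bases, while all other pairs of the 7 windows reached at most 35.1%. Neither pattern was found in the window of Ifi47. These matches are descriptions of letters in the reference sequence. No binding was measured, and the window of Irgm2 starts from a RefSeq start that lies inside the longer gene model of the annotation used for the counts.

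The comparison of DKO with WT asked how far GTPases that are typical of interferon gamma followed the type I interferon genes in these cells. Levels are given as normalized counts, which are read counts scaled to a common effective library size. Of the 10 genes, 9 had a log2 fold change (DKO over WT) above 0, a sign shared by 52.6% of the genes tested, and the median log2 fold change of the 10 was 1.10, against 0.03 for all genes tested. A call needed an adjusted p under 0.05 together with a log2 fold change above 1 (or below -1), and Gbp3, Gbp7 and Mx2 were called higher, that is 3 of 10 (30%), against 6.19% of the genes tested. Irgm1 also passed the adjusted p but not the fold, so that 4 of 10 rose, against 10.7% of the genes tested. In these same 4 genes every DKO library lay above every WT library, which was seen in 13.5% of the genes tested. At the edgeR adjusted p 0 of the 10 genes fell, against 10.8% of the genes tested (2.43% called lower). At an unadjusted p under 0.05 also 0 fell, and the share of all genes lower by that measure was not counted. DESeq2 called 0 of the 10 lower, against 617 of the 20643 genes to which it gave an adjusted p. For 0 of the 10 did every DKO library lie below every WT library, against 14.6% of the genes tested. By family, 2 of 3 GBP genes, 0 of 5 IRG genes and 1 of 2 MX genes were called higher, and the median log2 fold changes were 1.17, 0.68 and 2.42 in that order. At an unadjusted p under 0.05, 3 of the 5 IRG genes were higher, against 18.4% of the genes tested. DESeq2, another count model, called 6 of the 10 genes higher (all 3 GBP genes, Iigp1 among the IRG genes and both MX genes), and over the whole table it called 1658 of the 20643 genes to which it gave an adjusted p (8.03%), against 1076 of 17378 (6.19%) by edgeR. Differences between the families were not tested.

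**Figure D1:**
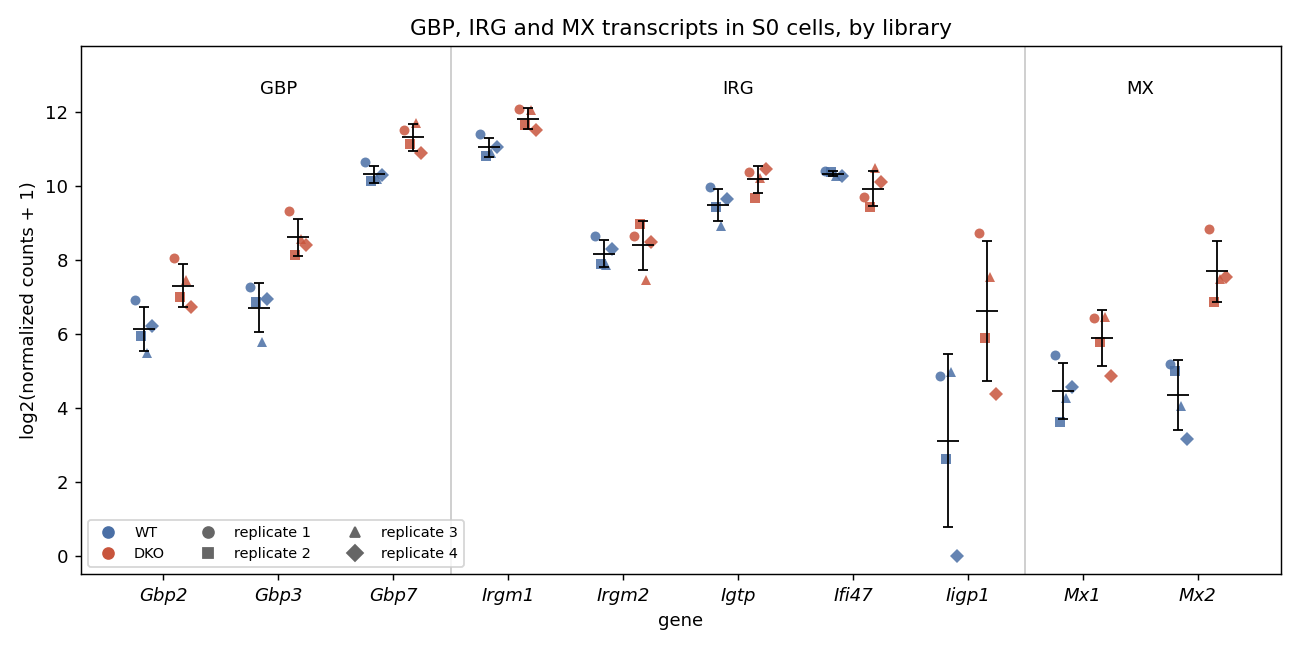
Level of each of the 10 GTPase genes, as log2(normalized counts + 1), in each library. Each point is 1 library (colour for genotype, shape for replicate), and the bars give the mean ± SD of the 4 log2 values. The DKO points lie wholly above the WT points for Gbp3, Gbp7, Irgm1 and Mx2 and overlap them in the other 6 genes.

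Among the GBP genes, which lie together on chromosome 3, Gbp3 changed most. Gbp3 (142560026 to 142573209) had 155, 115, 53.9 and 122 normalized counts in WT replicates 1 to 4 and 643, 280, 380 and 343 in DKO replicates 1 to 4. Each DKO library was above each WT library, and DKO replicate 1 was the highest of all. The mean rose from 112 ± 42.2 (SD, n = 4) to 411 ± 160 (SD, n = 4), a log2 fold change of 1.88 (SE 0.38, edgeR quasi-likelihood adjusted p = 0.00993), and the exact two-sided permutation test gave p = 0.0286, the smallest that 4 against 4 libraries allow. Gbp7 (142530342 to 142550149) was the most abundant of the 3, with 1613, 1124, 1174.5 and 1255 normalized counts in WT, against 2927, 2269, 3384 and 1917 in DKO. The groups did not overlap, and the lowest DKO library, replicate 4, was above the highest WT library, replicate 1. Gbp7 rose from a mean of 1291 ± 221 to 2624 ± 657 (SD, n = 4 each), with a log2 fold change of 1.02 (SE 0.19, edgeR adjusted p = 0.00733, exact permutation p = 0.0286), so that it stood just above the fold needed for a call. An annotated processed pseudogene, Gm43802, shares 637 exon bases with Gbp7, and how reads there were divided is not known.

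Gbp2 (142620602 to 142638008), the GBP gene most often studied as an effector against intracellular bacteria, did not pass the test. Its normalized counts were 120, 60.2, 44.3 and 73.4 in WT and 266, 127, 175 and 104 in DKO. The groups overlapped through a single pair, since DKO replicate 4 was below WT replicate 1. The mean was 74.6 ± 32.8 in WT and 168 ± 71.5 in DKO (± SD over 4 libraries each), with a log2 fold change of 1.17 (SE 0.42, edgeR adjusted p = 0.0752, exact permutation p = 0.0571). The fitted change of Gbp2 was thus larger than that of Gbp7, with a standard error more than double that of Gbp7 in the fit. The remaining GBP genes of the mouse lie mostly on chromosome 5, and their mean normalized counts were below those of Gbp2 in both groups.

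In the Irgm group, Irgm1 rose and the other two did not pass the test. Irgm1 (chromosome 11, 48861968 to 48871683, minus strand), a regulator also known for its part in autophagy and in the survival of blood stem cells, had 2729, 1819, 1921 and 2155 normalized counts in WT. It had 4381.5, 3229, 4252 and 2929.8 in DKO, so that all DKO libraries were above all WT libraries. The mean rose from 2156 ± 407 to 3698 ± 727 (± SD over 4 libraries each), and the log2 fold change was 0.78 (SE 0.17, edgeR adjusted p = 0.0127, exact permutation p = 0.0286). Irgm1 had the most normalized counts of the 10 genes in both groups.

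Igtp (chromosome 11, 58199556 to 58207591) had 1014, 689, 486 and 799 normalized counts in WT, against 1344, 816, 1193 and 1428 in DKO. One pair overlapped, as DKO replicate 2 was below WT replicate 1. The mean was 747 ± 220 in WT and 1195 ± 271 in DKO (± SD over 4 libraries each), and the log2 fold change of 0.68 (SE 0.24) had an edgeR adjusted p of 0.0739 and an exact permutation p of 0.0571. Irgm2 (58199618 to 58222782), whose gene model overlaps that of Igtp on the same strand, had 401, 238, 231 and 312 normalized counts in WT. It had 403, 507, 176 and 359 in DKO. These ranges overlapped widely, with DKO replicate 3 the lowest of all 8 libraries and DKO replicate 2 the highest. The mean of Irgm2 was 296 ± 79.2 in WT and 361 ± 138 in DKO (± SD over 4 libraries each), with a log2 fold change of 0.29 (SE 0.33, edgeR adjusted p = 0.570, exact permutation p = 0.600). Igtp and Irgm2 share 162 exon bases on the same strand in the annotation, and their counts are to that extent not independent.

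Of the effectors, Ifi47 was the one gene of the 10 with a log2 fold change below 0. Ifi47 (chromosome 11, 49076587 to 49096974) had 1376, 1340.0, 1236 and 1248 normalized counts in WT, against 830, 699, 1450.4 and 1104 in DKO. The WT libraries were close together, while DKO replicate 3 was above all of them and the other 3 DKO libraries were below all of them. The mean was 1300.2 ± 68.6 in WT and 1021 ± 333 in DKO (± SD over 4 libraries each), with a log2 fold change of -0.35 (SE 0.21, edgeR adjusted p = 0.257, exact permutation p = 0.171). Leaving out DKO replicate 3 gave a log2 fold change of -0.56 with an adjusted p of 0.0375, and leaving out DKO replicate 2 gave -0.21 with an adjusted p of 0.453. With DKO replicate 3 as the only DKO library it was 0.14 with an adjusted p of 0.527. Olfr56 shares 111 exon bases with Ifi47.

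Iigp1, on chromosome 18, had a large fitted fold change, close to that of Mx2, and the largest standard error of the 10 genes. Its normalized counts were 28.3, 5.16, 30.4 and 0 in WT and 423, 58.1, 184 and 19.9 in DKO. At least 10 counts were reached in only 2 WT libraries, and DKO replicate 4 fell within the WT range. The mean was 16.0 ± 15.6 in WT and 171 ± 182 in DKO (± SD over 4 libraries each), and the log2 fold change of 3.42 had an SE of 1.19, an edgeR adjusted p of 0.0686 and an exact permutation p of 0.0857. DESeq2 (adjusted p = 0.00803) put Iigp1 past the threshold that edgeR did not, so that its call depends on the model.

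The MX genes lie on chromosome 16 and differed from each other in their separation. Mx2 (97535308 to 97560900), which the annotation lists as a polymorphic pseudogene, had 35.6, 31.0, 15.6 and 7.87 normalized counts in WT, against 462, 116, 179 and 187 in DKO. Every DKO library was at least 3 times as high as every WT library. The mean rose from 22.5 ± 13.0 to 236 ± 154 (± SD over 4 libraries each), and the log2 fold change was 3.39 (SE 0.60, edgeR adjusted p = 0.00636, exact permutation p = 0.0286). Mx1 (97447035 to 97462907, minus strand) had 41.9, 11.2, 18.2 and 22.7 normalized counts in WT, against 86.2, 54.6, 86.7 and 28.2 in DKO. DKO replicate 4 was below WT replicate 1, and the other 3 DKO libraries were above all WT libraries. The mean of Mx1 was 23.5 ± 13.1 in WT and 63.9 ± 28.1 in DKO (± SD over 4 libraries each), with a log2 fold change of 1.44 (SE 0.56, edgeR adjusted p = 0.0934, exact permutation p = 0.0571).

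Levels were also scaled by exon length, as normalized counts per kilobase, so that genes could be set in order. In WT the order was led by Ifi47 with 526 ± 27.7 (SD, n = 4), followed by Irgm1 with 371 ± 70.1, Igtp with 369.5 ± 109 and Gbp7 with 230.0 ± 39.3 normalized counts per kilobase. Irgm2 came next with 80.1 ± 21.5, ahead of Gbp3 with 34.2 ± 12.9 and Gbp2 with 29.65 ± 13.0. Mx2 with 6.23 ± 3.59, Mx1 with 6.21 ± 3.47 and Iigp1 with 2.74 ± 2.68 were the lowest. Read as mean ± SD, Irgm1 could not be set apart from Igtp, Igtp from Gbp7, Gbp3 from Gbp2, or the lowest 3 genes from one another. In DKO the level per kilobase was 636.5 ± 125 for Irgm1, 591 ± 134 for Igtp, 467.5 ± 117 for Gbp7 and 413 ± 134.5 for Ifi47, and each of these overlapped its neighbour within the SD. Ifi47 was thus the highest of these 4 in WT and the lowest of them in DKO. The other 6 genes formed a lower group in DKO, with 126 ± 48.9 for Gbp3, 97.9 ± 37.5 for Irgm2, 66.7 ± 28.4 for Gbp2, 65.4 ± 42.6 for Mx2, 29.4 ± 31.3 for Iigp1 and 16.9 ± 7.43 for Mx1, again with each neighbour overlapping the next. The IRG regulators, Gbp7 and Ifi47 were thus readily counted in the WT libraries, whereas the MX genes and Iigp1 were near the limit of counting there.

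**Figure D2:**
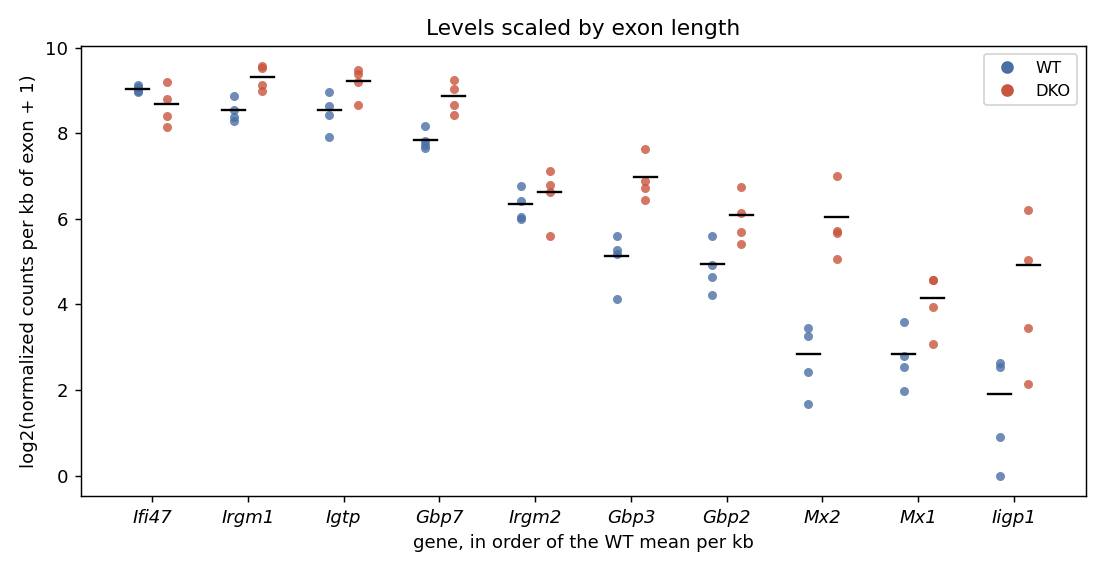
Level per kilobase of exon, as log2(normalized counts per kilobase + 1), with 1 point per library, a bar at the group mean and the genes in order of the WT mean. Ifi47, Irgm1, Igtp and Gbp7 lie above the other genes in both groups, and Mx1, Mx2 and Iigp1 are lowest in WT.

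The type I interferon genes gave the first side of the comparison. In a list of 30 such genes, 29 were tested, 28 had a log2 fold change above 0 and 25 were called higher (86.2%). The median of their log2 fold changes was 3.13, with quartiles of 1.68 and 3.80. Their smallest p-values belonged to Ifi27 (log2 fold change 4.07), the antiviral enzyme Rsad2 (3.61) and Oas1a (3.40), a sensor of double-stranded RNA. The list ran from Ifit2 (-0.20, adjusted p = 0.553) to Ifi44, which had 0 counts in every WT library and was at least 169-fold higher in DKO against a floor of 3 counts over the 4 WT libraries. That bound rested largely on DKO replicate 1 and was 47.4-fold without it. The log2 fold change of Mx2 (3.39) lay between the quartiles of this list. The other 2 called genes, Gbp3 (1.88) and Gbp7 (1.02), lay between and below those quartiles, and Irgm1 (0.78) lay below both. Ifi27 illustrates the difference in scale, with 266 to 481 normalized counts in WT and 4880 to 6800.0 in DKO.

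Genes known for their response to interferon gamma, other than the GTPases, gave the second side. Of 30 listed, 24 were tested, and 14 had a log2 fold change above 0, a sign shared by 52.6% of the genes tested. Of the 24, 2 were called higher (8.33%, near the 6.19% of the genes tested). At the adjusted p alone 9 rose (37.5%, against 10.7% of the genes tested and 4 of the 10 GTPases), and 3 of the 24 fell, against 10.8%. In 6 (25%, against 13.5%) every DKO library lay above every WT library, and in 5 every DKO library lay below, against 14.6%. The median of the list was 0.27 on the log2 scale. The 2 genes called higher were the chemokine Cxcl10 (log2 fold change 3.31, adjusted p = 0.00136), which type I interferon also induces, and Socs1 (1.42, adjusted p = 0.0179), a feedback inhibitor of JAK signalling. The H2-D1 gene, an MHC class I heavy chain, rose by less than the fold needed for a call (log2 fold change 0.95, adjusted p = 0.000516). Irf8, a transcription factor of myeloid cells, was called lower (-1.79, adjusted p = 0.0251), in libraries in which the myeloid markers were also lower. Cxcl9, Ido1, Nos2, Cxcl11, H2-Aa and Nlrc5 had too few reads to be tested.

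Taken without the MX genes, the 8 GBP and IRG genes had 2 calls (25%, against 6.19% of the genes tested) and a median of 0.90 for the log2 fold change, between the medians of the gamma list (0.27) and the type I list (3.13). The 10 GTPases summed to 5211 to 7514 normalized counts in WT and 8155 to 11767 in DKO, and the type I genes to 8362 to 13069 in WT and 36408 to 65824 in DKO. The gamma genes outside the GTPases summed to 58680.5 to 62601 in WT and 77010.3 to 86062 in DKO. The rise of the gamma sum lay largely in 3 MHC class I genes. These were B2m (mean 17145 in WT and 24909 in DKO), H2-D1 (9516 and 18350) and H2-K1 (4940 and 8854). The rise of the GTPase sum lay largely in Irgm1, Gbp7 and Igtp, so neither sum describes its list gene by gene. The sums did not overlap between groups for any of these lists, and the sum of the type I genes was several times larger in DKO while those of the GTPases and of the gamma genes were less than double. The difference between the lists was not tested, and the lists were written with the behaviour of interferon genes in these libraries known.

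**Figure D3:**
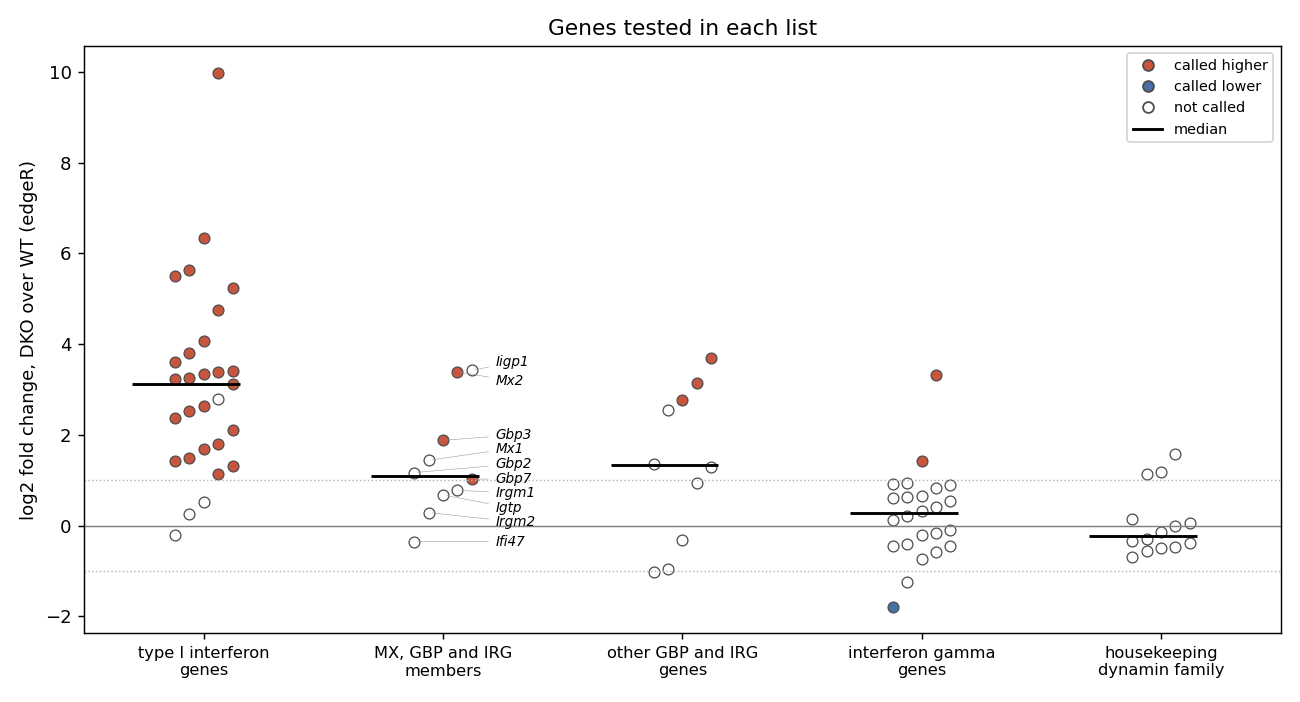
Log2 fold change (DKO over WT) of each tested gene in each list, with 1 point per gene, filled where the gene was called, and a bar at the median of each list. The type I genes centre on 3.13, the GBP, IRG and MX genes on 1.10 and the gamma genes outside the GTPases on 0.27.

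The promoter patterns of the lists can be set beside these values. An ISRE pattern was found in 14 of 24 type I genes with a window (58.3%) and in 3 of 19 gamma genes (15.8%), against 6 of the 7 GTPases. A GAS pattern was found in 5 of 24 type I genes (20.8%) and 5 of 19 gamma genes (26.3%), against 3 of the 7 GTPases. Of the other listed GTPases of these and related families with a window, 6 of 8 held an ISRE pattern (75%) and 4 of 8 a GAS pattern (50%). These shares were near those of the 7 GTPases. Irgq and 9930111J21Rik2 held neither pattern and 9930111J21Rik1 held an ISRE pattern, and each of them had a log2 fold change below 0. Irgm2 held both patterns with a log2 fold change of 0.29. Of the type I genes that held neither pattern, Oasl1, Oasl2, Irf7, Ifi44, Cmpk2, Xaf1 and Samd9l were called higher and Herc6 was not. No test of these shares was made.

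The other GTPases of these and related families in the mouse form the nearest comparison. They were listed by family, and induction by interferon was not established for each of them, Irgq and Irgc1 among them. Of 19, 10 were tested, and 7 had a log2 fold change above 0, a sign shared by 52.6% of the genes tested. Of the 10, 3 were called higher (30%, against 6.19% of the genes tested). Over these 10 the median was 1.33 on the log2 scale. Tgtp2 (log2 fold change 3.70, adjusted p = 0.00291) and Tgtp1 (3.14, adjusted p = 0.00606), IRG effectors also named Irgb6, are near-identical copies whose reads cannot be divided with certainty. Tgtp2 had 8.61 to 26.2 normalized counts in WT and 143 to 380.4 in DKO, and Tgtp1 had 6.99 to 13.6 in WT and 30.5 to 129 in DKO. Gbp6, of the chromosome 5 cluster, had 6.89 to 13.9 normalized counts in WT and 25.6 to 186 in DKO (log2 fold change 2.77, adjusted p = 0.0220), and shares 1726 exon bases with Gm43302. In all 3 every DKO library lay above every WT library, which was seen in 13.5% of the genes tested. All 3 started from a low WT level, as Mx2 did. At least 10 counts were reached in 2 WT libraries for Tgtp1 and in 3 for Gbp6 and for Mx2, against 4 DKO libraries for each. Counts in DKO were thus needed for these genes to be tested.

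The other 7 tested genes did not pass. Gbp5, a GBP known for inflammasome activation, had a log2 fold change of 2.54 (adjusted p = 0.215) with 95.3 normalized counts in DKO replicate 2 and 0 in DKO replicate 4. Gm12250 (Irgb10) had 1.37 (adjusted p = 0.119), Gm4070 had 1.29 (adjusted p = 0.256) and Gbp9 had 0.95 (adjusted p = 0.453). The log2 fold change was below 0 for Irgq (-0.33, adjusted p = 0.472), 9930111J21Rik2 (-0.94, adjusted p = 0.509) and 9930111J21Rik1 (-1.02, adjusted p = 0.506). Gbp2b and Irgc1 had 0 counts in all 8 libraries, and Gbp4, Gbp8, Gbp10, Gbp11, Gm4951, F830016B08Rik and Gvin1 had too few to be tested. Gbp4 illustrates these low counts, with 0, 0, 0 and 13 reads in WT and 100, 83, 6 and 7 in DKO.

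The interferon genes themselves were close to the limit of detection. Ifng, which encodes interferon gamma, had 0 counts in all 8 libraries, so that its transcript was not detectable at this depth, a count of 0 allowing up to 3 counts per library. Ifnb1 had 14 counts in DKO replicate 3 and 0 elsewhere, and Ifna1 and Ifna2 had 4 and 2 counts in DKO replicate 2 alone. Ifnz had 4 counts in WT replicate 3 and in DKO replicate 1, and Ifnk had 7, 11, 7 and 10 counts in WT and 0, 4, 5 and 17 in DKO. The other interferon genes listed had 0 counts, and none of the 21 could be tested.

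Receptors of both interferon types fell. Ifngr1, the ligand-binding chain of the interferon gamma receptor, had 5229 to 6757 normalized counts in WT and 3437 to 4617 in DKO, with no overlap and a log2 fold change of -0.61 (adjusted p = 0.00749). Ifngr2 (-0.58, adjusted p = 0.0148) and the type I receptor chains Ifnar1 (-0.57, adjusted p = 0.0238) and Ifnar2 (-0.52, adjusted p = 0.0121) fell by similar amounts, none of them past the fold needed for a call. Of the transcription factors, Irf9, the DNA-binding subunit of ISGF3, rose (log2 fold change 0.97, adjusted p = 0.00520), with 919 to 1462 normalized counts in WT and 1873 to 2461 in DKO. Stat2, another subunit of ISGF3, had a log2 fold change of -0.14 (adjusted p = 0.508). Irf1, a transcription factor that relays much of the gamma response, had 874 to 1099.8 normalized counts in WT and 383 to 828 in DKO, with every DKO library below every WT library and a log2 fold change of -0.73 that did not pass the test (adjusted p = 0.0546).

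The levels of the GTPases also varied among the DKO libraries. Each library was described by the median, over the genes of a group, of the log2 ratio to the WT mean (pseudocount 1 normalized count). In DKO replicates 1 to 4 the median of the type I genes was 3.48, 2.37, 2.89 and 2.57, that of the MX genes 3.07, 1.75, 2.39 and 1.63, and that of the GBP genes 1.82, 0.81, 1.39 and 0.57. That of the IRG genes was 0.85, 0.58, 0.67 and 0.30 in the same order. In each of these 4 groups DKO replicate 1 was the highest and DKO replicate 3 the next, while the lowest was DKO replicate 2 for the type I genes and DKO replicate 4 for the 3 GTPase families. The gamma genes outside the GTPases had -0.12, 0.48, 0.11 and 0.22, with DKO replicate 1 the lowest. DKO replicate 1 was the highest DKO library for 5 of the 10 GTPases and for 25 of 29 type I genes (86.2%), against 32.5% of the genes tested, and it was also the library with the lowest sum of myeloid markers. DKO replicate 4 was the lowest DKO library for 5 of the 10 GTPases and DKO replicate 2 for 4. These are 4 libraries per group, and the relation was not tested.

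**Figure D4:**
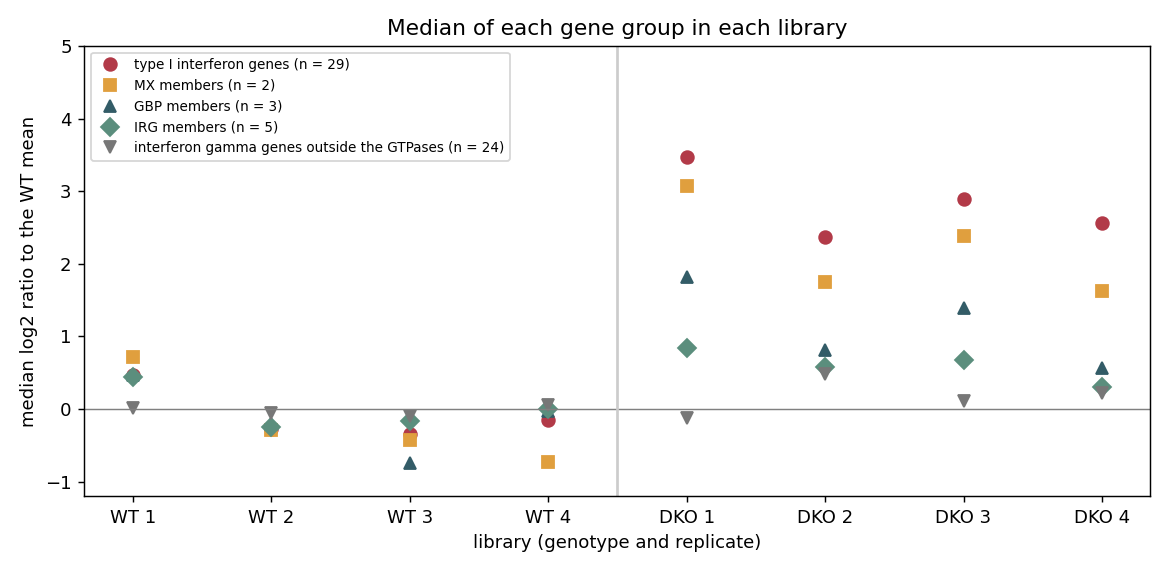
Median log2 ratio to the WT mean (y axis) of each gene group in each of the 8 libraries (x axis). In every DKO library the points of the type I, MX, GBP and IRG genes lie one above the other in that order, each group with its highest point at DKO replicate 1, while the gamma genes outside the GTPases stay between -0.12 and 0.48.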

How the data were processed

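The deposited values are whole-number read counts per gene, which the authors made with StringTie 1.3.3b after trimming with fastp 0.21.0 and alignment to mm10 with HISAT2 2.2.1. They were neither normalized nor pooled. Whether counting used strand is not given in the sources used here. Columns were matched to the 8 samples by name, and 52403 of 52636 identifiers matched a GENCODE symbol with the version ignored. Gene coordinates and exons are those of GRCm38.

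The fit used edgeR 4.0.16 with limma 3.58.1 under R 4.3.3 (filterByExpr with a minimum count of 10, TMM scaling, robust quasi-likelihood test, Benjamini-Hochberg adjustment over all 17378 genes tested, no covariate). Exact two-sided permutation tests of log2 CPM used the 70 arrangements of 4 against 4 libraries. DESeq2 1.42.0, other scalings and filters, a replicate block and the omission of each library were alternatives. The steps were checked on simulated counts. No library pair of a group agreed within sampling noise (chi-square per gene of at least 18.87).

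The members, the gene lists and the alternatives were chosen with earlier results of these data known. The genes named are the 10 members, the other listed GTPases, the interferon genes and the named receptors and factors. Of the type I, gamma, signalling and dynamin lists the extremes are named. Of the first 2 of these lists the 3 called genes with the smallest p are also named. Marker lists are given as sums, and 1 gene of the signalling list is not reported here. Cd163, Timd4, C1qa, C1qb, C1qc, Mrc1, Ncr1, Tbx21, Nkg7, Cd3e, Gzma, Klrb1c, Rag1, Ddx3y and H2-D1 were named after their values were seen. So were Oasl1, Oasl2, Irf7, Cmpk2, Xaf1, Samd9l and Herc6.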

Additional observations from a re-analysis of the deposited data

How the results depend on the processing

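Gbp3, Gbp7, Irgm1 and Mx2 kept their direction and an adjusted p under 0.05 in every alternative that could test them, with adjusted p up to 0.0344, 0.0293, 0.0428 and 0.0226. Gbp7 lay close to the fold threshold, and its log2 fold change was 0.9999 without the low-count filter and under 1 when WT replicate 2, WT replicate 3, DKO replicate 1 or DKO replicate 3 was left out. DESeq2 called 1658 genes and 6 of the 10 GTPases higher, and 5 of the 17 other listed GTPases that it fitted. It gave adjusted p of 0.0276 for Gbp2 (log2 fold change 1.17), 0.033 for Igtp (0.67), 0.00803 for Iigp1 (3.42) and 0.047 for Mx1 (1.44). Upper-quartile scaling moved the median log2 fold change of all genes from 0.03 to 0.14 and the share of calls that were higher from 71.8% to 79.1%, called 5 gamma genes, and gave Igtp 0.79 (adjusted p = 0.0415). A minimum of 10 counts in every library left Iigp1 and Mx2 untested and gave Mx1 1.47 (adjusted p = 0.0448). Of the other GTPases it left 2 to be tested and called 1. With no fold threshold, 1867 genes were higher, 1878 lower and 9 gamma genes higher. With DKO replicate 3 as the only DKO library, which is assumed to vary like the WT libraries, 590 genes were higher, 1143 lower, 1 gamma gene and 1 other GTPase were called, Irgm2 was at -0.77 (adjusted p = 0.192) and Ifi47 at 0.14 (adjusted p = 0.527). The replicate block called 613 genes higher and 4 of the 10 GTPases, with Iigp1 at 3.61 (adjusted p = 0.0239). The labels share only a number between the groups, the correlations of same-numbered deviations were -0.102, 0.0535, -0.0276 and -0.00717, and no library correlated best with its own number. Without each library in turn, the genes called higher were 566 (without WT replicate 1) to 1148 and lower 243 (without WT replicate 4) to 521, the GTPases called 2 to 3, the type I genes 23 to 25, the gamma genes 1 to 3 and the other GTPases 2 to 3. The log2 fold change was then 0.86 to 1.499 for Gbp2, 1.59 to 2.08 for Gbp3, 0.88 to 1.15 for Gbp7, 0.69 to 0.91 for Irgm1, 0.08 to 0.52 for Irgm2, 0.51 to 0.86 for Igtp, 2.44 to 3.95 for Iigp1, -0.56 to -0.21 for Ifi47, 1.21 to 1.87 for Mx1 and 2.83 to 3.68 for Mx2. In these, the adjusted p was 0.0384 for Igtp (0.82) without DKO replicate 2. The cause of these changes was not tested. Low counts limit Iigp1, Mx1 and Mx2 in WT.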

Other observations

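Within WT, replicate 1 had the highest level of 9 of the 10 GTPases, Iigp1 being the exception, and of 25 of 29 type I interferon genes (86.2%), while it was the highest WT library for 22.1% of the genes tested. Its median log2 ratio to the WT mean was 0.72 for the MX genes, 0.47 for the GBP genes, 0.44 for the IRG genes and 0.46 for the type I genes, against 0.01 for the gamma genes outside the GTPases. In the overlap of Gbp2, Igtp and Mx1 the WT library concerned was replicate 1.

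GTPases of the dynamin superfamily that serve membrane traffic and mitochondria and are not induced by interferon were counted for contrast. Of 14 tested, 0 were called by edgeR in either direction, against 6.19% (higher) and 2.43% (lower) of the genes tested. At an unadjusted p under 0.05, 2 were higher, against 18.4% of the genes tested. By the same measure 7 were lower, and the share of all genes lower by it was not counted. DESeq2 called 1 higher and 0 lower, against 1658 and 617 of the 20643 genes to which it gave an adjusted p. At its adjusted p alone 6 were lower, and the share of all genes lower by that measure was not counted. The median log2 fold change of the 14 was -0.22, from Mfn2 to Dnm1 (1.57, adjusted p = 0.0802). By edgeR 4 fell at the adjusted p, against 10.8% of the genes tested, by less than the fold needed for a call. These were Mfn2 (-0.70) and Opa1 (-0.33), which fuse mitochondria, Dnm2 (-0.46), which cuts membrane necks in endocytosis, and Atl3 (-0.57), which fuses tubules of the endoplasmic reticulum. Dnm2, Opa1 and Atl3 were named after their values were seen. None of the 13 with a promoter window held either of the interferon patterns.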
